A study of Mus musculus with 18 samples.

Results

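Osteoclasts are the large multinucleated cells of the monocyte lineage that dissolve bone, and the 10 genes described here are their standard markers together with the ligand, receptor and decoy receptor that govern their formation. The genes are Acp5, Ctsk, Ocstamp, Dcstamp, Calcr, Atp6v0d2, Nfatc1, Tnfsf11, Tnfrsf11a and Tnfrsf11b. They were chosen by name, with earlier results of these data known, and all 10 were found by symbol among the 49585 genes of the count table. Bulk RNA-Seq read counts were examined in 18 libraries of sorted CD45+ leukocytes from Kaede mice, in 6 groups of 3 libraries. Kaede is a fluorescent protein that turns permanently from green to red under ultraviolet light, so a red cell found in a lymph node after a joint or an ear was illuminated had been in that tissue at the time. In the inflamed groups, Kaede mice had received OT-II CD4+ T cells (which recognise ovalbumin) polarised to a Th1 phenotype, had been immunised with ovalbumin in complete Freund's adjuvant, and had then been challenged with heat-aggregated ovalbumin in the footpad or in the ear pinna. Joint nonmigrated and skin nonmigrated cells were the red cells still in the ankle joint or the ear a day after photoconversion. Joint migrated and skin migrated cells were the red cells that had reached the draining lymph node by then. The source names of the other 2 groups give leukocytes that migrated from the joint or the ear to the node, without the word inflamed. These groups are called steady state here. Titles of the joint-draining steady-state libraries carry PBS and the letters KG, and those of the skin-draining ones carry the word naive. The protocol attached to every sample gives mice challenged with PBS the same T cells and immunisation before the challenge. What KG stands for, and whether the mice of the libraries titled naive were treated, is not given in the sources used here. All mice carried the Kaede transgene, each library was a pool of mice, and the labels give no age. The study compared migrated with nonmigrated cells to find genes tied to leaving or staying in an inflamed joint.

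Osteoclast formation begins when a precursor of the monocyte lineage, kept alive by the growth factor CSF-1, meets RANKL, the product of Tnfsf11, through its receptor RANK, the product of Tnfrsf11a. RANK signals through TRAF6, NF-κB and AP-1 to NFATc1, the master transcription factor of the lineage. NFATc1 acts with PU.1 and MITF to switch on the fusion proteins DC-STAMP and OC-STAMP, the d2 subunit of the proton pump, tartrate-resistant acid phosphatase, cathepsin K and the calcitonin receptor. Osteoprotegerin, the product of Tnfrsf11b, is a secreted decoy that binds RANKL and keeps it from RANK. In an inflamed joint osteoclasts erode bone, and T cells, innate lymphoid cells and stromal cells are known sources of RANKL. Outside bone, RANK is known on dendritic cells, and macrophages express several genes of the osteoclast programme.

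Library totals ran from 19239531 to 43814403 counts, and every inflamed skin library was smaller than every inflamed joint library. Reads outside any gene were 0.0925 to 0.135% of counts in the inflamed skin libraries and 0.293 to 0.562% in the inflamed joint ones. A difference in how the libraries of the 2 sites were made can therefore not be told apart from site. A count of 3 in a library, taken as the floor, equalled 0.0615 to 0.18 CPM, where CPM is the count scaled to a common library size by TMM over the 18 libraries. Ptprc, which encodes CD45, was at 1152 to 2535 CPM in every library. The summed level of 10 macrophage markers was 16830 to 21390 CPM in the joint nonmigrated group and 2423 to 10760 CPM in the skin nonmigrated one. In the nodes it was 129 to 302 CPM after migration from the joint and 260 to 488 CPM after migration from the skin, and at steady state 343 to 500 CPM in joint-draining and 49.3 to 74.2 CPM in skin-draining cells. All 10 of these markers lay above the floor in every nonmigrated library, and Folr2 was at or under it in the skin migrated and both steady-state groups. Skin nonmigrated replicate 3 stood apart from its group, with a macrophage sum of 10760 against 3573 and 2423 CPM and a sum of 6 keratinocyte markers of 27.3 against 169 and 329 CPM. Joint migrated replicate 1 stood apart with a sum of 10 mature migratory dendritic cell markers of 3890 against 7823 and 8761 CPM. Bulk counts cannot tell fewer cells of a type from less RNA per cell.

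Promoter sequences of the pair of matrix-degrading enzymes and of the RANK and RANKL genes are shown first, because the levels of the enzymes differed from each other and the receptor and ligand form the control step. Of the 10 genes, 5 were found in the RefSeq table of GRCm38.p6, and the window is the stretch of up to 250 bases before the outermost annotated start, read 5′ to 3′ on the gene's strand. Capitals mark matches on either strand to 4 motifs: GGAAA, the core bound by NFAT factors, GAGGAA, a form of the PU.1 site, TCANNTG, the E-box form bound by MITF, and TGANTCA, the AP-1 site. Among 32851 windows of the same length from all promoters in the table, 55.6% held GGAAA, 23.3% held GAGGAA, 37.3% held TCANNTG and 6.75% held TGANTCA. The Ctsk window, chr3:95498960-95499209 on the plus strand, held 2 matches to the PU.1 form and 3 to the E-box form, of which 2 overlap on opposite strands.
Ctsk: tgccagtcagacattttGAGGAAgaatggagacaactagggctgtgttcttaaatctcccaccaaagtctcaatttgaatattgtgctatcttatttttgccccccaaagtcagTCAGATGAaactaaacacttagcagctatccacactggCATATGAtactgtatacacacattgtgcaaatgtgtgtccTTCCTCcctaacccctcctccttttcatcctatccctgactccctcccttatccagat
The Acp5 window, chr9:22135747-22135996 on the minus strand, held 1 match to the NFAT core. It precedes the outermost of 3 annotated Acp5 starts and lies within 6530413G14Rik, a gene on the opposite strand.
Acp5: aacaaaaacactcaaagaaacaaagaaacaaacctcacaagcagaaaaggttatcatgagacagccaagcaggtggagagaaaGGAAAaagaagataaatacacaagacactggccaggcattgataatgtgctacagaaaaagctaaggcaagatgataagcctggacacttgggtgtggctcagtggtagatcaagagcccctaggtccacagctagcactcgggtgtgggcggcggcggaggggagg
The Tnfsf11 window, chr14:78308044-78308293 on the minus strand, held 1 match to the NFAT core.
Tnfsf11: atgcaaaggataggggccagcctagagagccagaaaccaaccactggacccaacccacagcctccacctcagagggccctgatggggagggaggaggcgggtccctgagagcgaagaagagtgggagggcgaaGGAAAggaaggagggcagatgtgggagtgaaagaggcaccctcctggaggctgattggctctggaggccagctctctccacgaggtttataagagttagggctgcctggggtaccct
The Tnfrsf11a window, chr1:105780473-105780717 on the plus strand, held no match to the 4 motifs.
Tnfrsf11a: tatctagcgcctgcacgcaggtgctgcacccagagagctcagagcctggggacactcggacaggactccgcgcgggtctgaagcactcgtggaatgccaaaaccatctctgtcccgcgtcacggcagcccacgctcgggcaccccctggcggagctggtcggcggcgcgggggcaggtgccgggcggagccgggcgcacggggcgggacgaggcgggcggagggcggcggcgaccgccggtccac
A match is only a match of letters, and none of these counts was tested against the rest of the genome.

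Across the 18 libraries the 10 genes did not behave as a block. Ctsk, Ocstamp, Dcstamp and Atp6v0d2 were higher in the cells that stayed in the tissue, Acp5 and Nfatc1 were present at 21.6 CPM or more in every library, Tnfrsf11a was high in the 4 inflamed groups and near 1 CPM or under at steady state, and Calcr was found only in joint nonmigrated cells. A gene was called where the adjusted p of edgeR's quasi-likelihood test was under 0.001 and the absolute log2 fold change was above 1. All adjusted p-values given here are from that test, adjusted by Benjamini-Hochberg over all genes tested. In joint migrated against joint nonmigrated cells, 4 of the 9 genes with enough counts to be tested were called lower and 0 higher, beside 12.6% of 16777 genes called lower, 8.8% higher and 21.4% in either direction. Skin migrated against skin nonmigrated cells gave the same split, with 4 of 9 lower and 0 higher beside 12.4% lower, 8.49% higher and 20.9% in either direction. At the looser adjusted p under 0.05, 5 of 9 were called at each site, beside 34.3% of all genes in the joint and 35.4% in the skin. The median log2 fold change of the 9 genes was -0.22 in the joint and 0.43 in the skin, beside medians over all genes of 0.02 and 0.01.

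**Figure D1:**
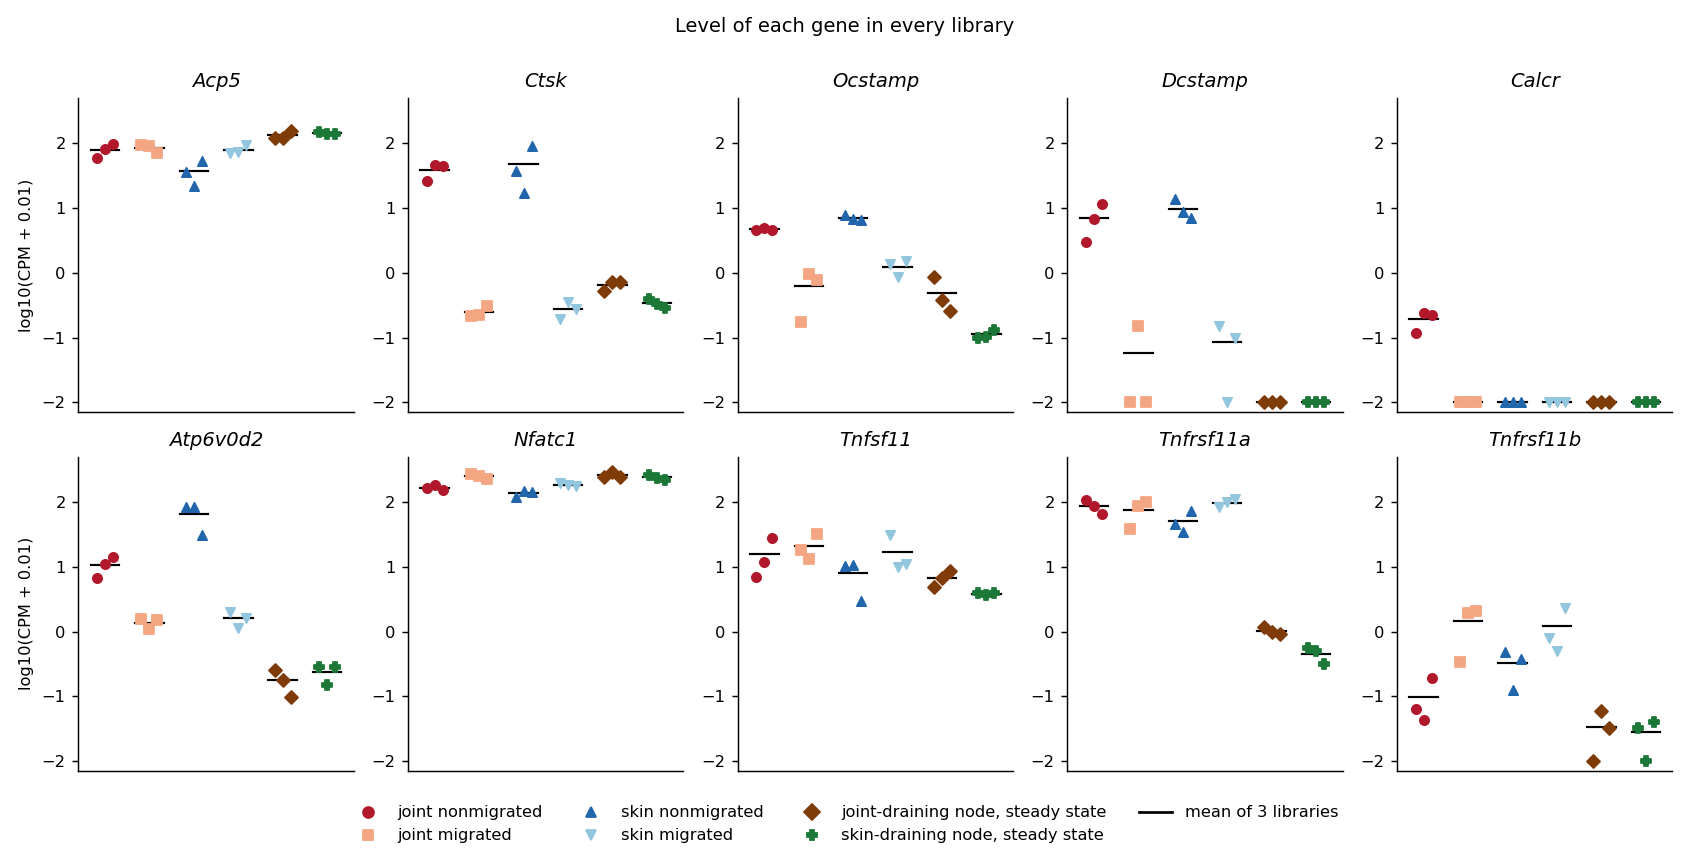
Level of each gene in every library, as log10 of CPM plus 0.01, with 1 panel per gene; points are libraries in 6 groups of 3, black bars are the log of the mean CPM of 3 libraries, and a point at -2 is a count of 0. Ctsk, Ocstamp, Dcstamp and Atp6v0d2 are higher in every nonmigrated library than in every migrated library of the same site, Calcr is above 0 in the 3 joint nonmigrated libraries, and Tnfrsf11a drops to 1.18 CPM or less in the 6 steady-state libraries.

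Ctsk (chr3:95499256-95509362 in mm10) encodes cathepsin K, the protease with which osteoclasts break down bone collagen. Its level was 26.1, 46.5 and 44.3 CPM in the 3 joint nonmigrated libraries and 0.205, 0.210 and 0.300 CPM in the joint migrated ones, where 9 to 14 reads were counted. Every joint nonmigrated library was far above every migrated one, and Ctsk fell by 7.33 on the log2 scale (SE 0.630, adjusted p = 3.17e-06), a 161-fold difference. In skin nonmigrated cells the level was 38.0, 17.3 and 89.9 CPM, and in skin migrated cells 0.186, 0.349 and 0.266 CPM. The groups again did not overlap, and Ctsk fell by 7.49 (SE 0.669, adjusted p = 4e-06). Without skin nonmigrated replicate 3, the highest library, the difference was -6.68 (adjusted p = 6.4e-07). Neither the comparison of the 2 nonmigrated groups (log2 fold change -0.31, SE 0.440, adjusted p = 0.629) nor that of the changes in joint and skin (difference 0.16, SE 0.993, adjusted p = 0.942) passed either call. At steady state Ctsk was 0.512, 0.712 and 0.711 CPM in joint-draining and 0.382, 0.325 and 0.275 CPM in skin-draining cells, so all 4 node groups lay under 1 CPM. All 10 macrophage markers were called lower in migrated cells at both sites, with a median log2 fold change of -6.75 in the joint and -5.04 in the skin. Of 10 tested genes on a list of osteoblast and stromal cell markers, 8 were called lower in the joint (median -6.56) and 7 lower and 1 higher in the skin (median -6.81). The part of neither list in the result was tested.

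Acp5 (chr9:22126727-22135711, minus strand) encodes tartrate-resistant acid phosphatase, the enzyme stained for to find osteoclasts. It did not follow Ctsk. Its level was 59.6, 81.4 and 97.4 CPM in joint nonmigrated cells and 95.5, 90.8 and 72.5 CPM in joint migrated cells, with overlapping groups and a log2 fold change of 0.12 (SE 0.271, adjusted p = 0.74). Skin nonmigrated cells had the lowest levels, at 36.5, 21.6 and 53.0 CPM, and skin migrated cells had 71.7, 74.5 and 93.5 CPM. These groups did not overlap, and the log2 fold change of 1.11 (SE 0.277, adjusted p = 0.00508) passed the looser call only. It passed the stricter one without skin nonmigrated replicate 3 (1.46, adjusted p = 0.000658), in a fit of all 18 libraries (0.000971) and by the DESeq2 Wald test (0.000605), and missed the fold for either without skin nonmigrated replicate 2 (0.84) or skin migrated replicate 3 (0.97). Joint nonmigrated cells had more Acp5 than skin nonmigrated cells at the looser call (log2 fold change 1.10, SE 0.277, adjusted p = 0.0131), which is the opposite order to that of their Ctsk means of 39.0 ± 11.2 and 48.4 ± 37.4 CPM (SD, n = 3). The order of the Ctsk means rested on skin nonmigrated replicate 3, and the Ctsk medians were 44.3 CPM in the joint and 38.0 CPM in the skin. That difference in Acp5 fell under the fold for a call without joint nonmigrated replicate 3 (0.93) or skin nonmigrated replicate 2 (0.83), and its adjusted p was 0.0589 in a fit of the 2 groups alone. The highest Acp5 levels were those of the steady-state nodes, at 123, 120 and 157 CPM in joint-draining and 153, 139 and 139 CPM in skin-draining cells. Acp5 was lower in joint migrated than in joint-draining steady-state cells (log2 fold change -0.60, SE 0.140, adjusted p = 0.00314) and in skin migrated than in skin-draining ones (-0.81, SE 0.141, adjusted p = 0.000222), both under the fold asked for a call. Exons of Acp5 overlap those of 6530413G14Rik on the opposite strand. Whether the libraries kept strand is not given in the sources used here, so whether reads of the overlap were counted for the right gene is not known.

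**Figure D2:**
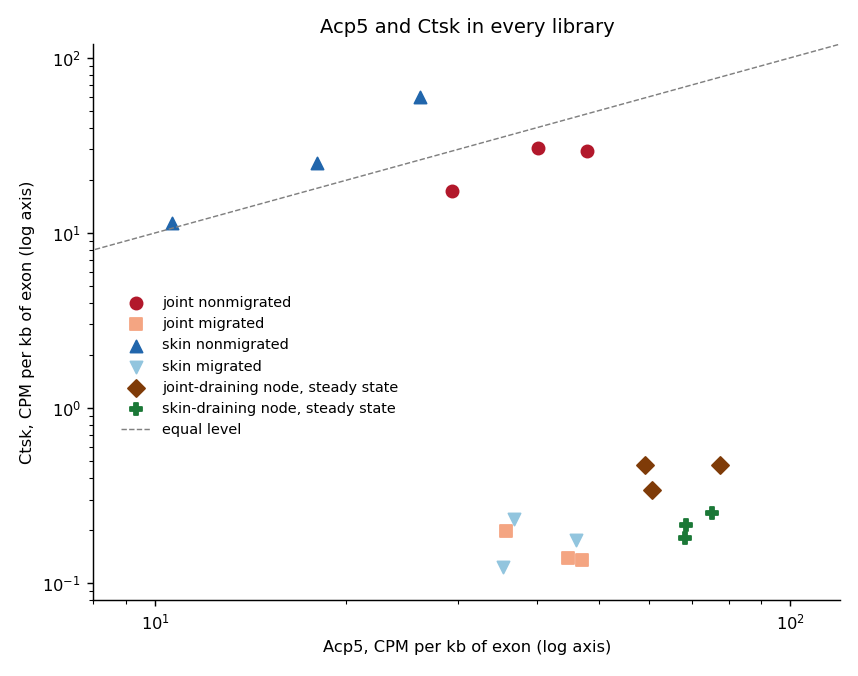
Ctsk against Acp5 in the 18 libraries, both as CPM per kb of exon on log axes, with colours and symbols for the 6 groups and a dashed line where the levels are equal. The 6 nonmigrated libraries lie near the line, and the 12 node libraries lie far under it at 35.3 to 77.5 CPM per kb of Acp5 and 0.123 to 0.471 CPM per kb of Ctsk.

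Set against gene length, the ratio of the enzymes separated tissue from node. Acp5 was 1.70, 1.30 and 1.64 times Ctsk per kb of exon in joint nonmigrated cells, and 0.714, 0.931 and 0.439 times Ctsk in skin nonmigrated cells. In the nodes it was 180 to 347 times Ctsk in joint migrated, 159 to 287 times in skin migrated, 126 to 179 times in joint-draining and 298 to 375 times in skin-draining steady-state cells. Acp5 ranked the groups in another order than Ctsk, with skin nonmigrated cells lowest for Acp5 and highest in mean for Ctsk. The Ctsk order of the 2 nonmigrated groups rested on skin nonmigrated replicate 3. Without it the log2 fold change of joint over skin was 0.50 (adjusted p = 0.246).

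Ocstamp (chr2:165393760-165400405) and Dcstamp (chr15:39745930-39760938) encode the multi-pass membrane proteins OC-STAMP and DC-STAMP, both needed for precursors to fuse. Ocstamp was 4.63, 4.94 and 4.65 CPM in joint nonmigrated and 7.74, 6.90 and 6.59 CPM in skin nonmigrated cells. It was 0.164, 0.934 and 0.771 CPM in joint migrated and 1.35, 0.849 and 1.51 CPM in skin migrated cells. Both pairs of groups were separate, and Ocstamp fell by 2.93 in the joint (SE 0.456, adjusted p = 0.000221) and by 2.51 in the skin (SE 0.454, adjusted p = 0.000619). The skin call was near its limit, since leaving out any 1 of the 3 skin nonmigrated, 3 skin migrated or 3 joint nonmigrated libraries raised the adjusted p to between 0.00105 and 0.00402. A replicate block raised it to 0.00234. In the joint it was raised to 0.001 without nonmigrated replicate 2 and to 0.00184 in a fit of the 2 groups alone. Ocstamp was separate between joint and skin nonmigrated cells as well, but the difference of -0.58 (SE 0.414, adjusted p = 0.32) did not pass either call.

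Dcstamp was 2.97, 6.70 and 11.6 CPM in joint nonmigrated and 13.6, 8.59 and 7.00 CPM in skin nonmigrated cells. Its counts were 0, 6 and 0 in joint migrated and 3, 0 and 2 in skin migrated cells, and 0 in all 6 steady-state libraries. The fitted log2 fold changes were -7.20 (SE 0.898, adjusted p = 4.32e-05) in the joint and -6.90 (SE 0.923, adjusted p = 7.42e-05) in the skin, and with so few reads their size depends on the prior count of the fit. The ratio of summed counts per library size was 160 in the joint (95% counting interval 73.3 to 438) and 123 in the skin (52.3 to 380), intervals that cover counting error only. Dcstamp exceeded Ocstamp per kb of exon in 5 of the 6 nonmigrated libraries, where the ratio of Ocstamp to Dcstamp was 0.293 to 0.685, while it was 1.14 in joint nonmigrated replicate 1. Dcstamp was too low for a test in the node comparison.

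Atp6v0d2 (chr4:19876841-19922605) encodes the d2 subunit of the vacuolar proton pump, which acidifies the space under an osteoclast and is also known in macrophages. Of the 9 genes tested it had the largest fold change between the tissues. Its level was 6.65, 11.1 and 14.0 CPM in joint nonmigrated cells and 84.1, 83.9 and 31.6 CPM in skin nonmigrated cells. The groups did not overlap, and Atp6v0d2 was the 1 gene of the 9 called between them, with a log2 fold change of -2.65 (SE 0.379, adjusted p = 0.000676), or 6.29-fold lower in the joint, beside 1.9% of all genes called lower and 3.05% in either direction. At the looser call it was joined by Acp5, so 2 of 9 passed beside 14.3% of all genes. The stricter call was lost on leaving out any library but skin nonmigrated replicate 3, with adjusted p-values of 0.00103 to 0.00471, and without that library, the lowest of its group, the difference was -2.98 (adjusted p = 3.18e-05). It was also lost in a fit of the 2 groups alone (-2.64, adjusted p = 0.0102) and with a replicate block (-2.59, adjusted p = 0.00259). Several marker lists differed between these groups. The macrophage sum was lower in skin than in joint nonmigrated cells. Higher in the skin were the sum of 3 Langerhans cell markers (175, 193 and 94.7 against 14.6 to 21.3 CPM in the joint), that of 10 mature migratory dendritic cell markers (1625, 2290 and 702 against 362 to 435 CPM) and that of 6 keratinocyte markers (169, 329 and 27.3 against 0.994 to 2.45 CPM). Skin nonmigrated replicate 3, with the least Atp6v0d2 of its group, had the highest macrophage sum and the lowest of the other sums. The part of these cells in the level of Atp6v0d2 was not tested. Library size and the share of reads outside genes also differed between the sites, and their part cannot be told apart from tissue.

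In migrated cells Atp6v0d2 was 1.54, 1.07 and 1.5 CPM from the joint and 2.00, 1.15 and 1.64 CPM from the skin, so these groups overlapped (log2 fold change -0.22, SE 0.428, adjusted p = 0.846). It fell by 2.94 from nonmigrated to migrated cells in the joint (SE 0.402, adjusted p = 8.61e-05) and fell by 5.38 in the skin (SE 0.447, adjusted p = 2.4e-06). The difference between these changes was 2.44 (SE 0.562, adjusted p = 0.0241), which passed the looser call only, as did 6.13% of all genes, while 0.119% and none of the 9 passed the stricter one. Leaving out 1 library at a time gave 2.19 to 2.77, with an adjusted p above 0.05 without joint nonmigrated replicate 2, skin nonmigrated replicate 1 or 2, or skin migrated replicate 2 or 3 (0.0535 to 0.0639). The DESeq2 Wald test passed it at the stricter call (adjusted p = 0.000492). An unadjusted p under 0.05 was reached by 3 of the 9, beside 26.3% of all genes. With every library kept, no other gene of the 9 passed the looser call for this difference, the next being Acp5 at -0.99 (SE 0.386, adjusted p = 0.133) and Tnfrsf11a at -1.16 (SE 0.482, adjusted p = 0.155). Without skin nonmigrated replicate 3 both passed it, Acp5 at -1.34 (adjusted p = 0.0152) and Tnfrsf11a at -1.52 (adjusted p = 0.0353).

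Calcr (chr6:3685680-3764714) encodes the calcitonin receptor, a late marker of osteoclasts through which calcitonin slows resorption. It was counted 4, 7 and 7 times in the joint nonmigrated libraries and 0 times in the other 15. The mean of 0.184 ± 0.0656 CPM (SD, n = 3) is at least 2.81-fold higher than the floor of the joint migrated libraries, and at least 1.08-fold higher than that of the smaller skin nonmigrated libraries, where a level as low would hardly be seen. Calcr passed the filter on low counts in no fit and was not tested.

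Nfatc1, the gene of the master transcription factor, is also known to be expressed in lymphocytes. It was 168, 185 and 153 CPM in joint nonmigrated, 269, 253 and 230 CPM in joint migrated, 122, 150 and 143 CPM in skin nonmigrated, and 196, 188 and 180 CPM in skin migrated cells. Migrated libraries were above nonmigrated ones at each site with no overlap, in the opposite direction to Ctsk, Ocstamp, Dcstamp and Atp6v0d2. The log2 fold change was 0.57 in the joint (SE 0.112, adjusted p = 0.00112) and 0.43 in the skin (SE 0.112, adjusted p = 0.00595), under the fold asked for a call. At steady state Nfatc1 was 249, 289 and 247 CPM in joint-draining and 261, 240 and 223 CPM in skin-draining cells. The sum of 10 T cell markers was 351 to 649 CPM in joint nonmigrated, 1012 to 1741 in skin nonmigrated, and 2673 to 3591 over the 4 node groups, all 10 above the floor in every library. Like Nfatc1 it was lower in the nonmigrated groups. Unlike Nfatc1 it was lower in joint than in skin nonmigrated cells and overlapped between the migrated groups. The sum of 8 B cell markers was 125 to 299 CPM in joint and 10.97 to 26.92 in skin nonmigrated cells. It was 993 to 1314 in joint and 173 to 294 in skin migrated cells, higher in the joint both times, as was Nfatc1. At steady state it was 3864 to 5935 CPM, while Nfatc1 overlapped between joint migrated and joint-draining cells. The part of neither list in the level of Nfatc1 was tested.

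The receptor gene Tnfrsf11a (chr1:105780718-105847981) separated the inflamed libraries from those at steady state. It was 109, 86.5 and 66.5 CPM in joint nonmigrated, 38.8, 86.3 and 99.8 CPM in joint migrated, 45.9, 34.5 and 74.0 CPM in skin nonmigrated, and 83.4, 103 and 111 CPM in skin migrated cells. At steady state it was 1.18, 0.982 and 0.911 CPM in joint-draining and 0.539, 0.488 and 0.306 CPM in skin-draining cells. The lowest inflamed library, at 34.5 CPM, thus stood far above the highest steady-state one, at 1.18 CPM. Tnfrsf11a was 74.6-fold higher in joint migrated than in joint-draining steady-state cells (log2 fold change 6.22, SE 0.336, adjusted p = 1.28e-08) and 222-fold higher in skin migrated than in skin-draining ones (7.79, SE 0.375, adjusted p = 2.38e-09). Between migrated and nonmigrated cells it overlapped in the joint (log2 fold change -0.22, SE 0.339, adjusted p = 0.605) and was separate in the skin, where 0.94 (SE 0.344, adjusted p = 0.0353) did not reach the fold for a call. Without joint migrated replicate 1, its lowest inflamed node library, the joint value was 0.10 (adjusted p = 0.795), and without skin nonmigrated replicate 3 the skin value was 1.30 (adjusted p = 0.00885), which passed the looser call. The same call was reached without skin migrated replicate 1 (1.05, adjusted p = 0.0399). Joint and skin nonmigrated cells differed by 0.76 (SE 0.343, adjusted p = 0.118), and without skin nonmigrated replicate 3 by 1.12 (adjusted p = 0.0264).

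The marker lists that were high beside Tnfrsf11a were not the same in tissue and node. The sum of 10 mature migratory dendritic cell markers (Ccr7, Fscn1, Ccl22 and others) was 362 to 435 CPM in joint nonmigrated, 702 to 2290 in skin nonmigrated, 6865 to 9542 in skin migrated, 3890 to 8761 in joint migrated, 632 to 967 in joint-draining and 601 to 742 in skin-draining steady-state cells. Of these markers Il4i1 was at or under the floor in joint nonmigrated cells, and Il4i1 and Ccl17 were in joint-draining steady-state cells. Among the migrated libraries, joint migrated replicate 1 had both the least Tnfrsf11a and the smallest of these sums. Among the skin nonmigrated libraries, replicate 3 had the most Tnfrsf11a, the largest macrophage sum and the smallest dendritic cell sum. Of the 9 dendritic cell markers tested against steady state, 8 were called higher and 0 lower in migrated cells at each site. Ccr7 was not among those called. The median log2 fold change of the 9 was 6.177 in the joint and 6.598 in the skin, beside 6.221 and 7.791 for Tnfrsf11a. The steady-state groups also differed from the migrated ones in a sum of 8 B cell markers, 3864 to 5935 CPM against 993 to 1314 in joint migrated and 173 to 294 in skin migrated cells. The part of none of these lists in the level of Tnfrsf11a was tested. Since the meaning of KG is not given, a difference in which cells were sorted cannot be told apart from inflammation in the joint comparison. Whether the mice of the libraries titled naive were treated is not given either. In the skin comparison, immunisation and the cells sorted can therefore not be told apart from inflammation.

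**Figure D3:**
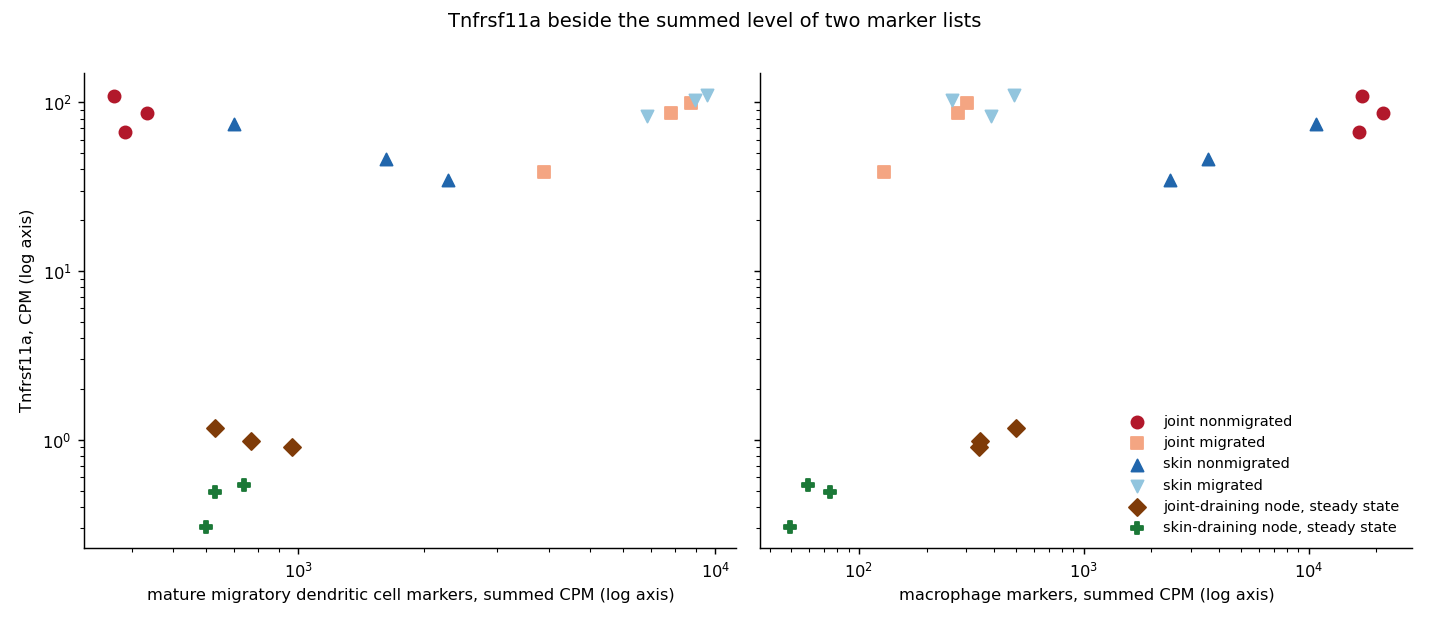
Tnfrsf11a in CPM against the summed CPM of 10 mature migratory dendritic cell markers (left) and of 10 macrophage markers (right), both on log axes, with 1 point per library. Migrated libraries combine high Tnfrsf11a with a high dendritic cell sum and a low macrophage sum, joint nonmigrated libraries show the reverse for the sums, and the 6 steady-state libraries lie at 1.18 CPM or less.

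Tnfsf11 (chr14:78277445-78308043), the gene of RANKL, varied as much within the inflamed groups as between them. It was 7.01, 11.9 and 28.4 CPM in joint nonmigrated, 18.5, 13.1 and 31.9 CPM in joint migrated, 10.2, 10.9 and 2.96 CPM in skin nonmigrated, and 30.9, 9.84 and 11.1 CPM in skin migrated cells. All 4 inflamed groups overlapped with their neighbours in the order of means, and no comparison among them passed either call, the log2 fold changes of migrated over nonmigrated cells being 0.42 in the joint (SE 0.614, adjusted p = 0.584) and 1.11 in the skin (SE 0.639, adjusted p = 0.159). The steady-state levels were 4.81, 6.75 and 8.73 CPM in joint-draining and 3.93, 3.67 and 3.98 CPM in skin-draining cells. Both migrated groups lay above these with no overlap. Tnfsf11 was 4.59-fold higher in skin migrated than in skin-draining cells (log2 fold change 2.20, SE 0.425, adjusted p = 0.000518) and passed the looser call in the joint (1.68, SE 0.407, adjusted p = 0.00385). The skin call was lost on leaving out skin migrated replicate 1, the highest library (1.44, adjusted p = 0.00224), any of the skin-draining libraries or joint-draining replicate 2 (2.10 to 2.17, adjusted p = 0.00115 to 0.00365). It was also lost in a fit of all 18 libraries (2.17, adjusted p = 0.00352) and in one of the 2 groups alone (2.18, adjusted p = 0.00103). The joint value passed the stricter call without skin migrated replicate 1 (1.68, adjusted p = 0.000393) and without a filter on low counts (1.64, adjusted p = 5.67e-06). A sum of 7 markers of type 17 T cells and innate lymphoid cells was 33.0 to 77.9 CPM in joint nonmigrated, 84.0 to 235 in skin nonmigrated, 179 to 214 in skin migrated, 265 to 380 in joint migrated, and 95.6 to 159 at steady state. In joint nonmigrated, skin nonmigrated and skin migrated cells the library with the most Tnfsf11 had the largest of these sums and the one with the least had the smallest, while in joint migrated cells replicate 3 had the most Tnfsf11 and replicate 1 the largest sum. The part of these cells in the level of Tnfsf11 was not tested. On the list of 13 osteoblast and stromal cell markers, 11 lay above the floor in every joint nonmigrated library, and the osteoblast genes Sp7 and Bglap were at or under it. The sum of that list was 169, 193 and 447 CPM in joint nonmigrated replicates 1 to 3, largest in the library with the most Tnfsf11. In skin nonmigrated replicates 1 to 3 it was 191, 196 and 313 CPM, largest in the library with the least Tnfsf11. It was 114 to 152 CPM in skin migrated and 121 to 158 in joint migrated cells, in both largest in the library with the most Tnfsf11. The migrated sums came from part of the list. Only 5 of the 13 markers in skin migrated and 6 in joint migrated cells lay above the floor in every library. Lum, Sp7, Ibsp and Postn were at or under it in both groups. The median log2 fold change from nonmigrated cells was -6.56 in the joint and -6.81 in the skin. In the steady-state libraries the sum was 19.1 to 28.3 CPM. The part of this list was not tested either.

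Tnfrsf11b (chr15:54250619-54278484), the gene of osteoprotegerin, was the scarcest part of the system. Its counts were 2, 1 and 6 in joint nonmigrated, 16, 82 and 97 in joint migrated, 8, 2 and 7 in skin nonmigrated, and 17, 10 and 52 in skin migrated cells. No steady-state library had more than 2. Migrated libraries exceeded nonmigrated ones at both sites, with means of 1.44 ± 0.967 CPM in joint migrated and 1.198 ± 0.968 CPM in skin migrated cells (SD, n = 3). The joint log2 fold change of 3.94 (SE 0.905, adjusted p = 0.00308) passed the looser call only, and the skin value was 1.89 (SE 0.849, adjusted p = 0.0756). Without joint migrated replicate 1 the joint value was 4.42 and passed the stricter call (adjusted p = 0.000877), as it did without a filter, in a fit of all 18 libraries and by the DESeq2 Wald test (adjusted p = 6.24e-05 to 0.00073). The skin value passed the looser call without joint migrated replicate 1, with a replicate block and in the fit of all 18 libraries (0.0352 to 0.048). Against the steady-state nodes Tnfrsf11b was called in both sites, at 5.80 (SE 0.979, adjusted p = 0.000269) in the joint and 5.95 (SE 1.08, adjusted p = 0.000304) in the skin. The ratios of summed counts were 61.4 (95% counting interval 20.7 to 300.4) and 74.1 (19.9 to 623), resting on 3 and 2 steady-state reads. Without joint-draining replicate 2 the joint value was 6.67, above that of Tnfrsf11a, so the order of the 2 genes in the joint rests on those few reads. The stricter call was lost in the joint without migrated replicate 2 or 3 or any steady-state library, with adjusted p-values of 0.00104 to 0.00239, and in a fit of the 2 groups alone (0.00121). It was lost in the skin without migrated replicate 3 or any steady-state library, with 0.00172 to 0.00248.

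Per kb of exon the receptor mostly exceeded the ligand in the inflamed groups, and the order was inverted at steady state. Tnfrsf11a was 5.80, 2.73 and 0.875 times Tnfsf11 in joint nonmigrated, 0.785, 2.46 and 1.17 times in joint migrated, 1.67, 1.19 and 9.35 times in skin nonmigrated, and 1.01, 3.90 and 3.72 times in skin migrated cells. At steady state Tnfsf11 was 10.9 to 25.7 times Tnfrsf11a in joint-draining and 19.5 to 34.8 times in skin-draining cells. In the 9 inflamed libraries with more than 3 Tnfrsf11b reads, the ligand exceeded the decoy, with Tnfsf11 at 6.08 to 199 times Tnfrsf11b per kb. The full order per kb in joint nonmigrated cells was Acp5, Ctsk, Nfatc1, Tnfrsf11a, Tnfsf11, Atp6v0d2, Dcstamp, Ocstamp, Calcr and Tnfrsf11b, with mean levels of 39.1 ± 9.34 for Acp5, 25.8 ± 7.39 for Ctsk and 0.0317 ± 0.0281 CPM per kb for Tnfrsf11b (SD, n = 3). In skin nonmigrated cells Ctsk came first at 32.02 ± 24.75 and Atp6v0d2 next at 24.5 ± 11.1 CPM per kb. In all 4 node groups Acp5 came first and Nfatc1 next.

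Against the steady-state nodes the direction of the called genes was upward. In joint migrated against joint-draining steady-state cells, Atp6v0d2, Tnfrsf11a and Tnfrsf11b were called higher and 0 lower of 8 tested, beside 12.4% of 17107 genes called higher, 3.5% lower and 15.9% in either direction. Ocstamp and Tnfsf11 joined them among 5 of 8 called higher in skin migrated against skin-draining cells, beside 16.6% higher, 8.51% lower and 25.1% in either direction. At the looser call 5 of 8 passed in each comparison, beside 24.2% and 36.5% of all genes. Atp6v0d2, at 0.245, 0.172 and 0.0889 CPM in joint-draining and 0.270, 0.139 and 0.275 CPM in skin-draining cells, was 8.21-fold higher in joint migrated (log2 fold change 3.04, SE 0.396, adjusted p = 2.99e-05) and 7.16-fold higher in skin migrated cells (2.84, SE 0.396, adjusted p = 3.3e-05). Its levels in the migrated cells nevertheless stayed at 2.00 CPM or less. Ocstamp was 0.847, 0.368 and 0.244 CPM in joint-draining and 0.0898, 0.0929 and 0.122 CPM, or 4 reads each, in skin-draining cells. It was 12.3-fold higher in skin migrated cells (log2 fold change 3.62, SE 0.678, adjusted p = 0.000406) and did not pass in the joint (0.38, SE 0.552, adjusted p = 0.596). The skin call was lost without skin migrated replicate 1 or 3 or any skin-draining library, with adjusted p-values of 0.0016 to 0.0032, and with a replicate block (0.00293). Ctsk was lower in joint migrated than in joint-draining cells at the looser call (-1.39, SE 0.343, adjusted p = 0.00437), though not in a fit of all 18 libraries (adjusted p = 0.0586), and both lay under 1 CPM.

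**Figure D4:**
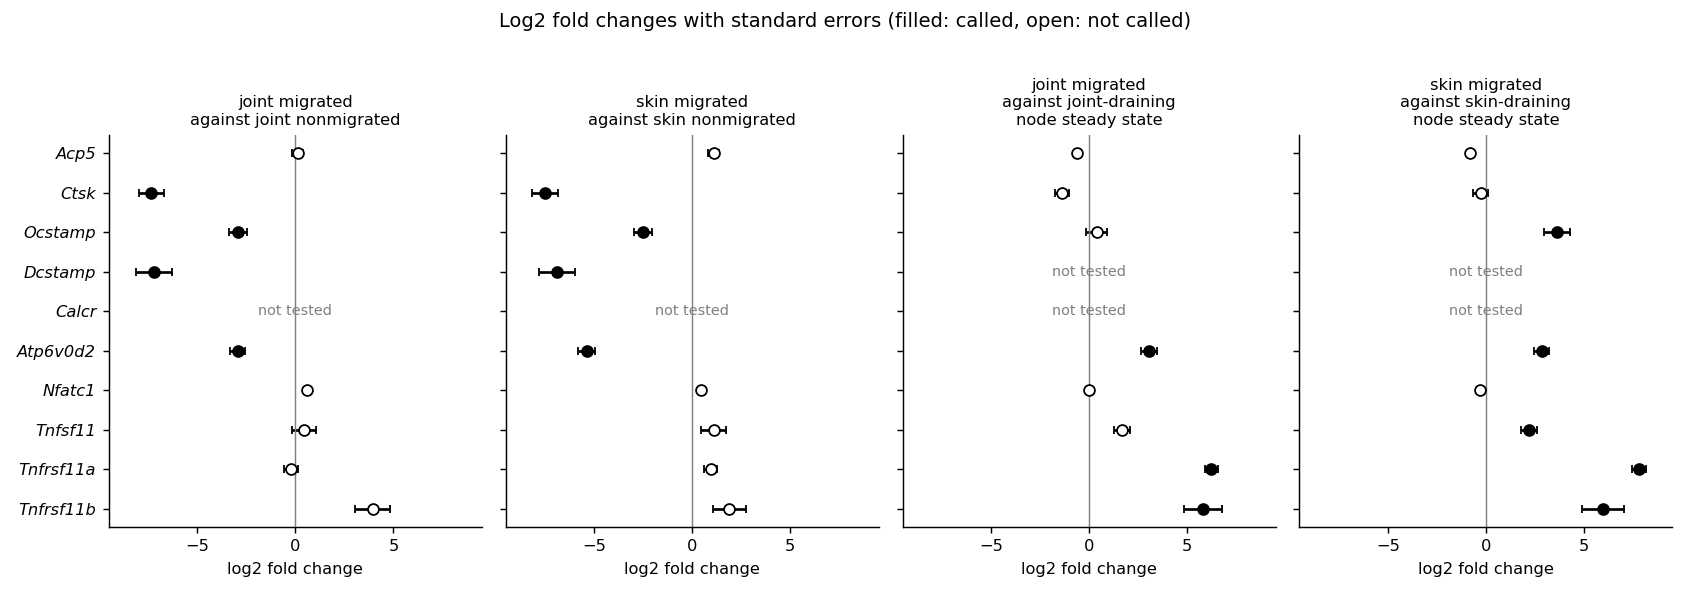
Log2 fold changes of the 10 genes in 4 comparisons, with the standard error as the bar; filled points passed the call (adjusted p under 0.001 and absolute log2 fold change above 1) and open points did not. Ctsk, Ocstamp, Dcstamp and Atp6v0d2 lie to the left of 0 in both comparisons with nonmigrated cells, and Tnfrsf11a lies farthest to the right in both comparisons with steady-state nodes.

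The remaining comparisons separated few genes. Joint migrated against skin migrated cells gave 0 of 9 called, as for 0% of all genes, and 0 of 9 at the looser call, beside 1.14% of all genes. In that comparison 2770 genes (16.5%) and 1 of the 9 had an unadjusted p under 0.05, and the DESeq2 Wald test called 177 genes and none of the 9. The smallest adjusted p among the 9 was that of Nfatc1, 0.0895 (log2 fold change 0.42, SE 0.112), and its groups did not overlap. Joint-draining against skin-draining steady-state cells gave 0 of 8 called by either rule, beside 1.44% of all genes and 3.89% at the looser call, and 3 of the 8 had an unadjusted p under 0.05, beside 21.7% of all genes. Ocstamp (2.23, SE 0.691, adjusted p = 0.0689) and Ctsk (0.95, SE 0.337, adjusted p = 0.11) had the smallest adjusted p-values there, and both were higher in every joint-draining library than in any skin-draining one. Ocstamp and Tnfrsf11a (1.16, SE 0.429, adjusted p = 0.127) passed the looser call when joint migrated replicate 1 was left out of the fit (adjusted p = 0.018 and 0.00543), by the DESeq2 Wald test (0.0205 and 0.012), without a filter (0.0137 and 0.0106) and in a fit of the 2 groups alone (0.0265 and 0.0259), and Ocstamp also in a fit of all 18 libraries (0.0435).

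Other genes of the pathway were counted in lists chosen by role. From nonmigrated to migrated cells, 12.6% of all genes were called lower and 8.8% higher in the joint. In the skin the shares were 12.4% and 8.49%. In the joint the median log2 fold changes of migrated over nonmigrated cells were -1.2 for effectors, -3.44 for precursor receptors, -0.31 for RANK signalling, -0.20 for repressors, -2.005 for promoting cytokines, 0.13 for restraining cytokines and 1.43 for other TNF family partners, beside 0.02 over all genes. In the skin they were -1.56, -3.15, -0.69, -0.79, -3.13, -2.46 and 0.74 in the same order, beside 0.01. Of 10 tested effector genes outside the markers, 6 were called lower and 1 higher in joint migrated than in joint nonmigrated cells, and 7 lower and 0 higher in the skin. Mmp9, a gelatinase secreted by osteoclasts and neutrophils, was 875 ± 400 CPM in joint nonmigrated and 9.02 ± 4.89 CPM in joint migrated cells (SD, n = 3), and fell by 6.6 (SE 0.541, adjusted p = 2.35e-06). Mmp14, a membrane-bound collagenase, fell by 4.09 in the joint (SE 0.346, adjusted p = 2.88e-06) and by 3.54 in the skin (SE 0.338, adjusted p = 6.36e-06). Those that fell at both sites included Tcirg1 and Clcn7, a pump subunit and a chloride exchanger of the acidifying machinery. The 1 that rose in the joint was Cd200, which is also on the list of mature dendritic cell markers. Neutrophil markers moved with Mmp9, since a sum of 10 was 6805 to 21570 CPM in joint nonmigrated, 1422 to 2520 in skin nonmigrated and 12.9 to 95 in the migrated groups, and their part was not tested. Ly6g, Mpo and Elane were at or under the floor in skin migrated cells.

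Precursor receptors and adaptors fell most uniformly. Of 10 tested, 8 were lower and 0 higher in the joint and 9 lower and 0 higher in the skin. Trem2, which signals through TYROBP in macrophages and osteoclasts, was 247 ± 46.8 CPM in joint nonmigrated and 0.679 ± 0.340 CPM in joint migrated cells, and fell by 8.51 (SE 0.582, adjusted p = 7.5e-07). Itgam, the integrin chain CD11b, fell by 6.15 in the joint (SE 0.278, adjusted p = 8.43e-08) and fell by 5.39 in the skin (SE 0.270, adjusted p = 7.49e-08). Csf1r, the receptor for CSF-1, was among those that fell at both sites. Sirpa, also a dendritic cell marker, was another.

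RANK signalling genes split. Of 28 tested, 11 were called lower and 2 higher in the joint and 9 lower and 1 higher in the skin. Over all genes the shares were 12.6% lower and 8.8% higher in the joint, and 12.4% and 8.49% in the skin. Mitf, which acts with PU.1 in osteoclasts and macrophages, fell by 5.04 in the joint (SE 0.353, adjusted p = 8.51e-07). Its relative Tfec fell by 4.93 (SE 0.431, adjusted p = 3.54e-06). Fos, Jun, Spi1, Syk, Btk and Gab2 were also lower at both sites. Relb, an NF-κB subunit of the noncanonical pathway that is also on the mature dendritic cell list, was called higher at both sites, and Camk4 in the joint. Of 10 genes tested on a list of repressors of osteoclast formation, 4 were lower and 2 higher in the joint and 3 lower and 0 higher in the skin. On that list Eomes, a T-box factor of cytotoxic lymphocytes, rose by 3.16 in the joint (SE 0.483, adjusted p = 0.000193). Whether Eomes restrains osteoclasts was not tested and is not given in the sources used here, so its rise is not that of a known repressor.

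Cytokines known to promote osteoclast formation were called lower in 3 of 9 in the joint and 5 of 9 in the skin, and none was called higher. For these and the next 2 lists, the shares over all genes were 12.6% lower and 8.8% higher in the joint. In the skin they were 12.4% and 8.49%. Il1a fell by 6.34 in the joint (SE 0.582, adjusted p = 4.81e-06) and fell by 8.32 in the skin (SE 0.639, adjusted p = 1.4e-06). Il1b was 1931 ± 524 CPM in joint nonmigrated and 146 ± 102 CPM in joint migrated cells and fell by 3.73 (SE 0.518, adjusted p = 9.77e-05). Among 9 tested cytokines and surface proteins known to restrain it, 2 were lower in the joint and 3 in the skin, with Il27 falling by 2.08 (SE 0.305, adjusted p = 0.000144) and Il18 by 2.08 (SE 0.330, adjusted p = 0.000249) in the joint. Of 8 relatives of RANKL and RANK in the TNF family, 3 were higher and 2 lower in the joint, and 1 higher and 2 lower in the skin. Tnfsf13b, the B cell factor BAFF, fell by 3.90 in the joint (SE 0.245, adjusted p = 4.45e-07), Ltbr, the lymphotoxin beta receptor, fell by 3.29 (SE 0.307, adjusted p = 5.39e-06), and Ltb, which encodes a ligand of that receptor, was the 1 called higher at both sites.

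The lists were also counted against steady state, where 12.4% of all genes were called higher and 3.5% lower in the joint, and 16.6% and 8.51% in the skin. The median log2 fold changes in the joint were 0.38 for effectors, 0.73 for precursor receptors, 0.23 for RANK signalling, -0.01 for repressors, 1.52 for promoting cytokines, 1.45 for restraining cytokines and 0.37 for other TNF family partners, beside -0.02 over all genes. In the skin they were 0.73, 2.82, 0.65, 1.09, 2.24, 3.03 and -0.03 in the same order, beside 0.00 over all genes. In joint migrated cells 5 of the 9 promoting and 5 of the 9 restraining cytokines were called higher and 0 lower, and in skin migrated cells 7 and 6 were higher and 0 lower. Of 10 precursor receptors and adaptors, 4 were higher in the joint and 7 in the skin with 0 lower. Of 28 signalling genes, 4 were higher and 3 lower in the joint, and 9 higher and 1 lower in the skin. Effector genes gave 3 higher and 1 lower of 10 in the joint, the lower one being Mmp9 (-2.45, SE 0.372, adjusted p = 0.000113), and 3 higher and 0 lower in the skin. The list of repressors gave 3 higher of 10 in the joint and 5 in the skin with 0 lower, Eomes being among the higher ones at both sites. TNF family partners gave 2 higher of 8 at each site, with 0 lower in the joint and 1 in the skin. Migrated groups serve in both kinds of comparison, so these counts and those before share libraries.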

How the data were processed

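Reads came from pooled, sorted cells in 18 libraries. Per the methods, the authors checked reads with FastQC, trimmed them with Trim-Galore!, aligned them to mm10 with TopHat2 (transcriptome version 87) and counted with HTSeq under default settings. The deposited values are raw read counts per Ensembl gene. No reads were realigned here. The 5 summary lines (11.27 to 15.1% of all counts) were removed, leaving 49585 genes, of which 49326 matched GENCODE M21 for symbols, exon lengths and mm10 positions.

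The 10 genes and all gene lists were chosen with earlier results of these data known. Groups come from the sample labels. Genes were tested on all rows with edgeR 4.0.16 (TMM, filterByExpr with a minimum count of 10, quasi-likelihood F test) with limma 3.58.1 and R 4.3.3, in 1 fit of the inflamed groups (12 libraries, 16777 genes) and 1 of the node groups (12 libraries, 17107 genes). The study's methods use an adjusted p of 0.05, the looser call here. Standard errors were derived from the F statistic. Genes named outside the 10 are the 2 called genes of each list with the largest change in the joint and, in the closing section, the 3 genes most correlated with each. A gene that this rule names is not reported here. Pathway genes given without values were named after their calls were seen. The sums of marker lists give the makeup of each library, and Cd200, Relb and Sirpa stand on both a marker and a pathway list. One list gene, Lilrb4a, found no match. Tests ran on simulated counts first. Alternatives were DESeq2 size factors, the DESeq2 1.42.0 Wald test, no filter, other sets of libraries, a replicate block, an adjusted p of 0.05 and leaving out each library. No 2 libraries of a group agreed within sampling noise (chi-square per degree of freedom 14.67 to 117.1). Intervals and floors cover counting error only.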

Additional observations from a re-analysis of the deposited data

Results flagged for a closer look

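The change of Atp6v0d2 from nonmigrated to migrated cells differed between joint and skin by 2.44 on the log2 scale (SE 0.562, adjusted p = 0.0241 by edgeR's quasi-likelihood test of the interaction), with Atp6v0d2 lower in every migrated than in every nonmigrated library at both sites. The log2 fold change was -2.94 in the joint and -5.38 in the skin. The skin nonmigrated libraries were at 84.1, 83.9 and 31.6 CPM and the joint nonmigrated ones at 6.65, 11.1 and 14.0 CPM, while all 6 migrated libraries lay between 1.07 and 2.00 CPM.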

How the results depend on the processing

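Over single genes, 1228 values were recomputed under another setting, of which 1147 kept their direction and side of the call, 48 lost the call, 10 gained it, 23 changed sign without being called and 0 reversed while called. The counts of 4 genes called in each comparison of migrated with nonmigrated cells ranged from 3 to 5 over the alternatives run. Between joint and skin nonmigrated cells the count of 1 (Atp6v0d2) became 2 at an adjusted p under 0.05, 0 in a fit of only the groups compared and 0 to 1 with 1 library left out. For the difference between the sites in the change, the count of 0 became 1 at 0.05 and 1 by the DESeq2 Wald test. Joint migrated against joint-draining cells went from 3 to 5 at 0.05, and skin migrated against skin-draining cells from 5 to between 2 and 5 with 1 library left out. Replicate numbers did not pair the samples by the deviations of same-numbered libraries (r of 0.0209, 0.254 and 0.195 in the joint and 0.173, 0.0739 and 0.148 in the skin). With a replicate block the count between joint and skin nonmigrated cells was 0. At an adjusted p of 0.05 the counts over all genes rose by more than 1.5 times from 3586 to 5757 and from 3508 to 5940 between migrated and nonmigrated cells of joint and skin, from 511 to 2400 between the nonmigrated groups, from 20 to 1029 for the difference between sites, from 0 to 191 between the migrated groups, from 2714 to 4143 for joint migrated against joint-draining cells and from 246 to 665 between the steady-state nodes. At 0.001 and with every library kept, those that moved by more than 1.5 times were the counts of skin migrated against skin nonmigrated cells (3508, and 2111 in a fit of only those groups), of joint against skin nonmigrated cells (511, with 204 under the replicate block, 0 in a fit of only those groups, 1014 without a filter, 1104 in a fit of all 18 libraries and 1550 by DESeq2), of the difference between sites (20, with 1 under the block, 290 without a filter, 301 in the fit of all libraries and 668 by DESeq2), of joint against skin migrated cells (0, with 7, 61, 38 and 177 in the same order) and of the steady-state nodes (246, with 163 under the block, 521 without a filter and 494 by DESeq2). Levels scaled by DESeq2 size factors stayed within 1 SD of those given. Genes with fewer than about 10 reads in a group (Calcr, Dcstamp in the nodes, Tnfrsf11b at steady state) are limited by depth.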

Other observations

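As a description over all 18 libraries, which share groups, depth and cell makeup, the gene most like each of the 10 was found by Pearson r of log2(CPM + 1). Ctsk was most like Ctsl (r = 0.991), Tnfrsf1a and Raet1d. Ocstamp was most like Clec4n (0.991), Tfec and Met, and Dcstamp most like Dach1 (0.9898), Gm42793 and Gm7997. Atp6v0d2 was most like Abr (0.991), Ero1l and Pfkp. Acp5 was most like Lrpprc (0.963), Acp6 and Ganab, and Nfatc1 most like Vars (0.941), Nsmaf and Ints1. Tnfrsf11a was most like Lima1 (0.995), Specc1 and Nav1, Tnfsf11 most like Odc1 (0.941), Tnfaip3 and Krt83, and Tnfrsf11b most like Gm266 (0.960), Gprin2 and Gm12473. Calcr, with counts in 3 libraries only, was most like Gm11505 (0.998), Car1 and Prss57. Among the 10 themselves, Ctsk and Dcstamp (0.959) and Ocstamp and Atp6v0d2 (0.940) were most alike. Nfatc1 ran against Ocstamp (-0.905) and Acp5 against Atp6v0d2 (-0.877), while Acp5 and Nfatc1 ran together (0.760).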
